A study of Mus musculus with 16 samples.

Results

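The genes described here encode 4 systems of axon guidance cues and their receptors: the ephrins and Eph receptors, the Slits and Robos, the netrins with Dcc and the Unc5 receptors, and the Flrt proteins. They were chosen by symbol from the deposited count table: every Epha, Ephb, Efna, Efnb, Slit, Robo, Ntn, Unc5 and Flrt gene with a plain number or letter, plus Dcc. The rule used no measured value and found 41 members among 55356 identifiers, of which 52080 (94.1%) matched a mouse gene symbol. The members were 9 Eph A receptors, 5 Eph B receptors, 5 ephrin A genes, 3 ephrin B genes, 3 Slits, 4 Robos, 4 netrins, Dcc with 4 Unc5 genes, and 3 Flrts.

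Dorsal root ganglion neurons, the sensory neurons that carry touch, temperature and pain, were taken from embryos of the outbred CD1 mouse strain and cultured. All cultures grew to day 6 in vitro with 50 ng/ml nerve growth factor, and with 1 µM fluorodeoxyuridine and 1 µM uridine, which limit dividing cells. In the nocodazole group, vehicle (DMSO) was followed 15 min later by 200 nM nocodazole, which binds tubulin and takes microtubules apart, for 16 h. The inhibitor plus nocodazole group received 500 nM GNE3511, which blocks the kinase DLK (dual leucine zipper kinase), before the same nocodazole dose. The inhibitor group received GNE3511 and then DMSO, and the DMSO group received DMSO at both steps. Each group had 4 libraries of total RNA depleted of ribosomal RNA. DLK relays axon damage to the nucleus through the JNK pathway, and the design asks which responses to nocodazole depend on it; with 1 inhibitor at 1 dose, effects through other targets cannot be told apart. The labels do not say whether replicates were separate cultures or litters, or whether embryos were pooled, and the p-values may therefore reflect technical spread alone.

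Growing axons read guidance cues through receptors on the growth cone, the motile tip of the axon. Ephrins are bound to the cell surface and mostly repel axons that carry Eph receptor kinases; Slits are secreted repellents read by Robo receptors; netrins attract axons through Dcc and repel them through Unc5 receptors. Flrt proteins are transmembrane adhesion molecules that bind latrophilins on other cells and, when shed, act as repellent ligands of Unc5 receptors. In sensory neurons these systems are known for steering axons into the limb and spinal cord and, for Slit2, for promoting the branching of sensory axons.

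Libraries held 30987962 to 43321421 counts. Values below are CPM, the counts scaled to a common library size after correcting for composition, with the replicates of a group given in the order 1 to 4; log2 fold changes are given ± SE. All 10 sensory neuron markers reached 1 CPM, with summed levels of 6069 to 6952 CPM in nocodazole, 6473 to 8147 CPM in inhibitor plus nocodazole, 7554 to 8860 CPM in inhibitor and 8796 to 9659 CPM in DMSO libraries. By the edgeR test described below, 7 of these 10 were lower and 1 higher in nocodazole against DMSO, where 19.0% of all genes were lower. In inhibitor plus nocodazole against nocodazole 5 were higher and 0 lower, where 17.7% of all genes were higher. Of 9 Schwann and satellite cell markers, 5 (Sox10, Fabp7, Erbb3, Foxd3 and Cdh19) stayed under 1 CPM in every library, as did all 6 endothelial markers. The summed glial markers were 1088 to 1723 CPM in nocodazole, 952.8 to 1674 CPM in inhibitor plus nocodazole, 1103 to 1732 CPM in inhibitor and 1614 to 2053 CPM in DMSO libraries. Fibroblast markers summed to 6.87 to 10.3 CPM in nocodazole, 2.02 to 3.68 CPM in inhibitor plus nocodazole, 2.95 to 6.71 CPM in inhibitor and 2.99 to 7.81 CPM in DMSO libraries. Their part in the results was not tested, and in bulk RNA fewer cells of a type and less RNA per cell cannot be told apart. Replicate 1 of inhibitor plus nocodazole stood apart from the others of its group: it scored -10.36 on the first principal component, against 28.4 to 31.37 for replicates 2 to 4. Mitochondrial transcripts made up 1.712% of its counts, against 0.8652% to 1.093% in replicates 2 to 4. Within the nocodazole group that share was 1.36% and 1.501% in replicates 1 and 2, and 0.8754% and 0.9771% in replicates 3 and 4. It was 1.387% and 1.78% in inhibitor replicates 2 and 3 and 1.079% and 1.06% in inhibitor replicates 1 and 4, against 0.7652% to 1.068% in DMSO libraries. Inhibitor replicates 2 and 3 scored 9.683 and 15.2 on that component, and inhibitor replicates 1 and 4 scored 41.55 and 32.3. The highest mitochondrial shares were those of inhibitor replicates 2 and 3, nocodazole replicates 1 and 2 and inhibitor plus nocodazole replicate 1. Those libraries carry consecutive sample numbers in the submitters' labels, and no DMSO library is among them. What that order stands for is not given, and its part in the results was not tested.

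In DMSO the member with the highest mean level per exon length was Efna3, at 155 ± 3.56 TPM (a scaled level per length, mean ± SD, n = 4), which overlapped with Epha6 in their libraries. Among Eph A receptors the order was led by Epha6 at 144 ± 21.8 TPM, Epha8 at 82.9 ± 3.36 TPM and Epha5 at 28.0 ± 3.05 TPM. Epha4 and Epha10 came next, and the libraries of Epha4 overlapped with those of Epha5 and with those of Epha10. Ephb6 led the Eph B receptors at 40.6 ± 4.53 TPM, before Ephb2 at 27.6 ± 0.685 TPM. Of the cues, Efna5 reached 96.0 ± 6.38 TPM and Efnb1, the highest ephrin B, 29.2 ± 2.13 TPM. Receptors of the A class and the cues they read were thus both expressed in these cultures. Slit1 made up 93.7% of the summed Slit level at 49.9 ± 2.77 TPM, and Robo2 stood above Robo1 (24.4 ± 1.62 against 15.1 ± 1.07 TPM). Ntn3, which in the mouse embryo is known to be made in sensory ganglia, led the netrins at 9.59 ± 1.70 TPM, while Ntn1, the founding netrin, was at 0.184 ± 0.148 TPM and overlapped with Ntn5. Unc5c led the netrin receptors at 16.3 ± 1.27 TPM, and Dcc was at 0.328 ± 0.0294 TPM. Dcc and Unc5a were thus the lowest of the netrin receptors, below every library of Unc5b, Unc5c and Unc5d. Flrt1 reached 138 ± 10.8 TPM, above Flrt3 at 33.8 ± 5.38 TPM and Flrt2 at 9.83 ± 0.510 TPM. Unc5a, Ephb1, Robo3, Robo4 and Ntn5 did not pass the filter on low counts, with 0 to 19 counts per library and at most 0.618 CPM, and the other 36 members were tested. The length of a gene was the union of all its annotated exons in GENCODE M21 on GRCm38, an older build than the authors' GRCm39. That union can exceed the length of a single transcript, and the order of genes and the shares within families depend on it. It was 25433 bases for Slit2 and 5921 for Slit1, which averaged 19.0 and 70.5 CPM in DMSO.

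**Figure D1:**
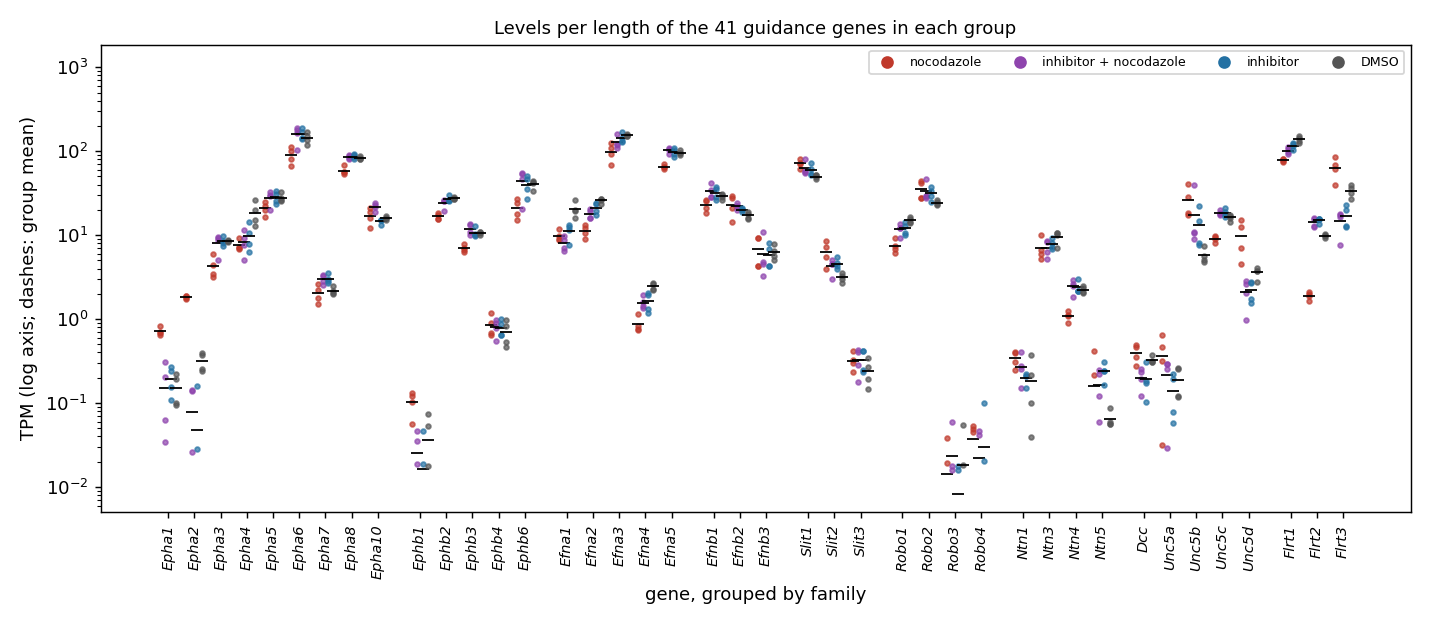
Level per exon length (TPM, log axis) of the members in the nocodazole, inhibitor plus nocodazole, inhibitor and DMSO libraries, with 1 point per library and a dash at each group mean. Libraries at 0 are not drawn. Members span from Efna3 at 155 TPM in DMSO to Robo3 at 0.0182 TPM in DMSO, and Robo4 was at 0 in all 4 DMSO libraries.

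Nocodazole alone changed most of these genes, and mostly downward. Of the 36 tested members, 8 rose and 19 fell against DMSO (edgeR quasi-likelihood test, adjusted p below 0.05 over all 19156 genes tested), which is 75.0% of them, where 37.5% of all tested genes were called. In all genes the calls were balanced, with 18.6% higher and 19.0% lower, and the median log2 change was 0.007, against -0.50 over the members. Of the 10 sensory neuron markers 7 were called lower as well and 1 higher, so a fall was not particular to the guidance genes. All 5 ephrin A genes fell, as did 5 of 9 Eph A and 3 of 4 tested Eph B receptors, Efnb1, Robo1, Ntn4, Unc5c, Flrt1 and Flrt2. The members that rose were Epha1, Epha2, Slit1, Slit2, Robo2, Unc5b, Unc5d and Flrt3. Flrt2 fell the furthest, to 3.37 ± 0.371 CPM after nocodazole, against 18.1 ± 0.634 CPM in DMSO (mean ± SD, n = 4), a 5.38-fold lower level. Epha2 rose by the largest factor, 5.45-fold, at a low level. Epha7, Epha10, Ephb4, Efnb2, Efnb3, Slit3, Ntn1, Ntn3 and Dcc did not pass the test.

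With the DLK inhibitor present, nocodazole changed none of the members by the edgeR test. Against the inhibitor alone, 0 of 36 members were called in inhibitor plus nocodazole, where 0.0835% of all genes were (0.0783% higher and 0.00522% lower); 3 members had an unadjusted p under 0.05, and DESeq2 called 1, Epha10, at a log2 change of 0.57 (DESeq2 adjusted p = 0.00691). The median absolute log2 change of the members was 0.0777 in this comparison, beside 0.0926 over all genes, against 0.804 and 0.278 for nocodazole without the inhibitor. The difference between the nocodazole changes with and without the inhibitor (the interaction, on the log2 scale: the change with inhibitor minus that without) was called for 16 members, 14 higher and 2 lower. That is 44.4% of those tested, where 18.7% of all genes were called, 9.52% higher and 9.2% lower. Comparing inhibitor plus nocodazole with nocodazole alone, 17 members were higher and 6 lower (63.9%, against 33.9% of all genes, 17.7% higher and 16.2% lower). This comparison shares the nocodazole libraries with nocodazole against DMSO, so the values of both are given side by side for each gene and are not independent. Without replicate 1 of inhibitor plus nocodazole, the interaction was called for 22 members, 17 higher and 5 lower, and for 5218 genes in all, against 3587 with that library.

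**Figure D2:**
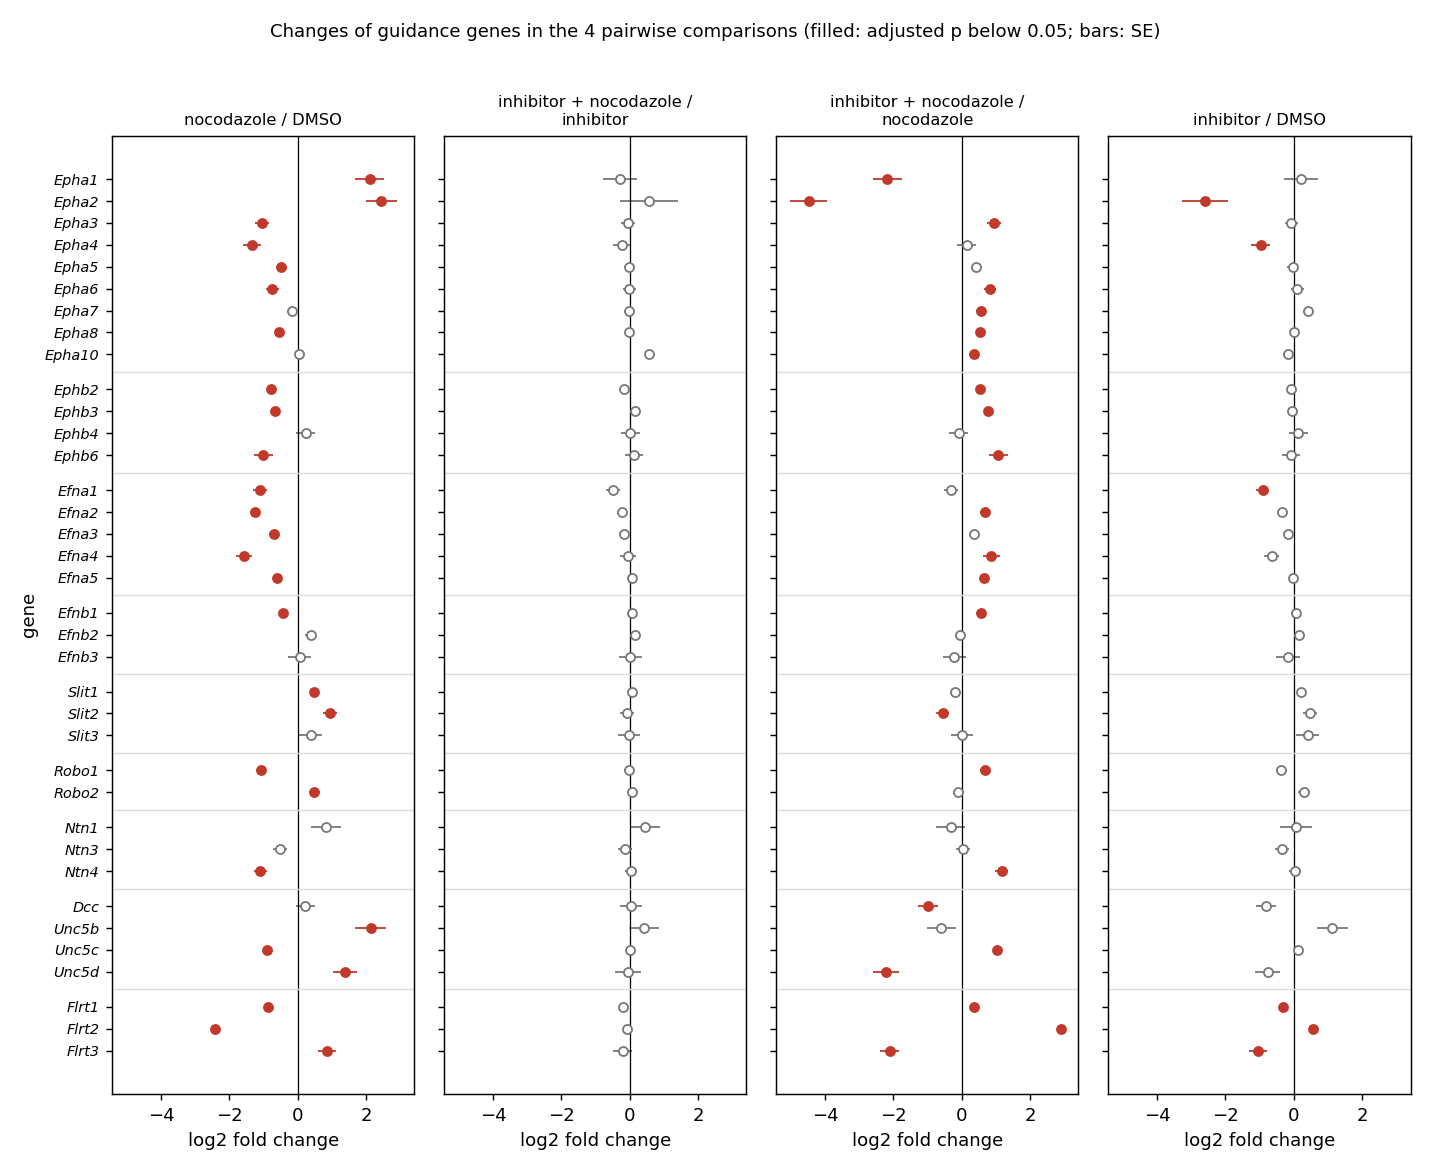
Log2 fold change with SE for each tested member in 4 comparisons: nocodazole against DMSO, inhibitor plus nocodazole against inhibitor, inhibitor plus nocodazole against nocodazole, and inhibitor against DMSO; filled points passed the edgeR test. The panel of inhibitor plus nocodazole against inhibitor has no filled point, while 27 points are filled in nocodazole against DMSO.

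The inhibitor alone changed few members. Against DMSO, 1 member rose (Flrt2) and 5 fell (Epha2, Epha4, Efna1, Flrt1 and Flrt3), which is 16.7% of those tested and close to the 13.0% of all genes (5.78% higher and 7.24% lower). Without inhibitor replicate 2 or replicate 3 the members that fell numbered 2, and all genes called numbered 1242 and 1290, against 2494 with every library. Without DMSO replicate 2 or 4 the members that fell numbered 4, and all genes called numbered 1523 and 1274. Inhibitor replicates 2 and 3 had the higher mitochondrial shares of their group, and the part of this was not tested. Without replicate 1 of inhibitor plus nocodazole Unc5b (log2 change 1.12, edgeR adjusted p = 0.0273) and Robo1 (-0.38, edgeR adjusted p = 0.0479) were called as well, and all genes called numbered 3072. Epha4, Efna1 and Flrt1 were thus lower both after nocodazole and under the inhibitor, while Epha2 and Flrt3 were higher after nocodazole and lower under the inhibitor. Flrt2 went the other way from those 2 genes, lower after nocodazole and higher under the inhibitor. These 2 comparisons share the DMSO libraries.

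Because Epha2 and Flrt3 are the members that rose with nocodazole and fell with the inhibitor alone, their promoters are shown, as the 250 bases before the RefSeq start site on GRCm38.p6. Capitals mark matches, on either strand, to a cyclic AMP response element (TGACGTCA, bound by CREB and ATF factors) and to a GC box (GGGCGG, bound by Sp1, which reads CCGCCC on the strand shown). The Epha2 window lies at chr4:141300971-141301220 on the plus strand and the Flrt3 window at chr2:140671477-140671726 on the minus strand.
Epha2: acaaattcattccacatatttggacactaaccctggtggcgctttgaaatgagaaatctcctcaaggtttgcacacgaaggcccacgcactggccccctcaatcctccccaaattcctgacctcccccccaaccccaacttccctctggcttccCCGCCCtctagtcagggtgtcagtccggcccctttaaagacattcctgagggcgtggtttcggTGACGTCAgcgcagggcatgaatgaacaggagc
Flrt3: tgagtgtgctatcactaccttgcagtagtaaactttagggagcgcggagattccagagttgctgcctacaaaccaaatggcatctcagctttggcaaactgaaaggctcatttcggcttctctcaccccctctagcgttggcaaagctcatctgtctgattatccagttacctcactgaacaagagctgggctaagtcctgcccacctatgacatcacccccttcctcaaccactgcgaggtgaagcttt
The Epha2 window, with 55.6% G and C, holds 1 cyclic AMP response element and 1 GC box, while the Flrt3 window, with 50.0%, holds no match to any motif searched. Among 40 promoters of the 35 members found in the RefSeq table, Epha2's was the 1 with that response element (2.5%), where 1.55% of 32851 promoters hold one. No member window held the AP-1 site (TGANTCA, bound by Jun and Fos), found in 6.75% of all, or the ATF4 composite site (TGATGNAA), found in 3.45%. Both strands were searched for each motif, the 2 matches shown do not overlap, and a match is a description and not a binding site.

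Epha2 and Epha1, receptors best known from epithelial cells, rose with nocodazole and did so from very low levels. Epha2 (ENSMUSG00000006445.4) gave 1.85, 2.03, 1.93 and 2.02 CPM in the nocodazole libraries, against 0.280, 0.439, 0.415 and 0.279 CPM in the DMSO libraries. With the inhibitor, Epha2 gave 0.144, 0.157, 0 and 0.0283 CPM in the nocodazole-treated libraries and 0, 0.0291, 0 and 0.177 CPM in those without nocodazole. The nocodazole libraries lay above all others, and both sets of inhibitor libraries lay below all DMSO libraries. These rest on few reads: Epha2 had 67, 68, 64 and 62 counts in nocodazole, 6, 5, 0 and 1 in inhibitor plus nocodazole, 0, 1, 0 and 7 in inhibitor and 9, 15, 18 and 9 in DMSO libraries. Epha2 showed a log2 fold change of 2.45 ± 0.444 (edgeR adjusted p = 0.00041) in nocodazole against DMSO. For Epha2 in inhibitor plus nocodazole against nocodazole the log2 change was -4.48 ± 0.546 (edgeR adjusted p = 9.77e-06). Inhibitor against DMSO gave Epha2 a log2 change of -2.60 ± 0.673 (edgeR adjusted p = 0.019), a call lost without inhibitor replicate 2 (edgeR adjusted p = 0.0635) or 3 (0.0569). Without inhibitor replicate 4, which held 7 of that group's Epha2 counts, the same change was -4.75 (edgeR adjusted p = 0.00137), so its size depends on that library. The interaction of Epha2 was -1.87 ± 1.05 (edgeR adjusted p = 0.221) and did not pass.

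Epha1 (ENSMUSG00000029859.7) stood at 0.607, 0.748, 0.635 and 0.585 CPM after nocodazole, against 0.0933, 0.0879, 0.207 and 0.186 CPM in DMSO. Under the inhibitor, Epha1 stood at 0.264, 0.0313, 0.186 and 0.0565 CPM with nocodazole, against 0.138, 0.232, 0.219 and 0.101 CPM without it. Its nocodazole libraries lay above those of every other group, and the other 3 groups overlapped. Epha1 showed a log2 fold change of 2.11 ± 0.425 (edgeR adjusted p = 0.000974) in nocodazole against DMSO, and of -2.18 ± 0.428 (edgeR adjusted p = 0.000854) in inhibitor plus nocodazole against nocodazole. The Epha1 interaction was -2.39 ± 0.663 (edgeR adjusted p = 0.0197); without inhibitor replicate 2 its edgeR adjusted p was 0.0533. Epha1 had 18 to 25 counts per nocodazole library, and 236 of its exonic bases (6.01%) lie opposite exons of Zyx, which encodes the actin regulator zyxin. Zyx stood at 156 ± 29.5 CPM in nocodazole, 27.5 ± 3.92 CPM in inhibitor plus nocodazole, 27.0 ± 4.65 CPM in inhibitor and 64.5 ± 12.2 CPM in DMSO (SD, n = 4 each), and rose with nocodazole by 1.27 (edgeR adjusted p = 1.14e-05). As the strand setting of the counting is not given, reads of Epha1 and Zyx cannot be told apart there.

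The abundant Eph A receptors, which sort axons into maps by reading graded ephrins, went the other way. After nocodazole Epha6 (ENSMUSG00000055540.16) measured 96.5, 80.4, 122 and 137 CPM, against 191, 212, 167 and 156 CPM in DMSO. For Epha6, the inhibitor libraries gave 119.6, 229, 219 and 204 CPM with nocodazole and 227, 168, 172 and 209.5 CPM without it. All 4 nocodazole libraries lay below the DMSO libraries, and replicate 1 of inhibitor plus nocodazole lay below the other 3 of its group and within the nocodazole range. Epha6 showed a log2 fold change of -0.74 ± 0.188 (edgeR adjusted p = 0.00553) in nocodazole against DMSO, and of 0.82 ± 0.188 (edgeR adjusted p = 0.00278) in inhibitor plus nocodazole against nocodazole. The Epha6 interaction missed the threshold at 0.73 ± 0.265 (edgeR adjusted p = 0.0664), and passed without that replicate 1 (0.90, edgeR adjusted p = 0.00486) or nocodazole replicate 4 (0.86, edgeR adjusted p = 0.0397). Epha8 (ENSMUSG00000028661.9) gave 58.2, 60.4, 75.0 and 60.9 CPM in the nocodazole libraries, against 92.1, 97.6, 88.7 and 95.1 CPM in the DMSO libraries. With the inhibitor, Epha8 gave 90.5, 98.7, 91.3 and 87.8 CPM in the nocodazole-treated libraries and 96.8, 87.3, 100.04 and 88.6 CPM in those without nocodazole. Only the nocodazole group was apart here, below all 12 other libraries. Epha8 showed a log2 fold change of -0.55 ± 0.074 (edgeR adjusted p = 2.52e-05) in nocodazole against DMSO, of 0.53 ± 0.074 (edgeR adjusted p = 3.56e-05) in inhibitor plus nocodazole against nocodazole, and had an interaction of 0.54 ± 0.104 (edgeR adjusted p = 0.00239).

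Epha3 (ENSMUSG00000052504.8) stood at 6.84, 6.25, 12.1 and 8.94 CPM after nocodazole, against 17.4, 17.8, 17.1 and 18.5 CPM in DMSO. Under the inhibitor, Epha3 stood at 9.61, 18.9, 18.9 and 17.8 CPM with nocodazole, against 19.5, 14.1, 16.3 and 17.3 CPM without it. This receptor of ephrin-A5 was below DMSO in every nocodazole library, and replicate 1 of inhibitor plus nocodazole again sat apart from the other 3, inside the nocodazole range. Epha3 showed a log2 fold change of -1.05 ± 0.206 (edgeR adjusted p = 0.000769) in nocodazole against DMSO, and of 0.93 ± 0.206 (edgeR adjusted p = 0.00216) in inhibitor plus nocodazole against nocodazole. The Epha3 interaction was 1.01 ± 0.287 (edgeR adjusted p = 0.0227); without nocodazole replicate 1 its edgeR adjusted p was 0.0504. After nocodazole Epha4 (ENSMUSG00000026235.15) measured 13.3, 12.8, 12.8 and 17.0 CPM, against 37.8, 49.5, 24.2 and 29.9 CPM in DMSO. For Epha4, the inhibitor libraries gave 9.03, 17.2, 21.4 and 14.2 CPM with nocodazole and 19.3, 14.0, 11.7 and 26.8 CPM without it. Epha4, which binds ephrins of both classes and guides motor and spinal axons, was below the DMSO range in every nocodazole and inhibitor plus nocodazole library and in all but replicate 4 of the inhibitor group. Epha4 showed a log2 fold change of -1.34 ± 0.274 (edgeR adjusted p = 0.00113) in nocodazole against DMSO and of -0.97 ± 0.27 (edgeR adjusted p = 0.0267) in inhibitor against DMSO. The Epha4 call under the inhibitor was lost without inhibitor replicate 2 (edgeR adjusted p = 0.0902) or 3 (0.0883), or DMSO replicate 2 (0.0933). In inhibitor plus nocodazole against nocodazole Epha4 gave a log2 change of 0.14 ± 0.276 (edgeR adjusted p = 0.742), and its interaction, 1.11 ± 0.386 (edgeR adjusted p = 0.054), missed the threshold and passed without replicate 1 of inhibitor plus nocodazole (edgeR adjusted p = 0.012), inhibitor replicate 4 (0.0168) or DMSO replicate 3 (0.0341).

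Epha10 (ENSMUSG00000028876.8) gave 31.1, 35.2, 27.0 and 20.003 CPM in the nocodazole libraries, against 26.2, 28.8, 27.1 and 28.3 CPM in the DMSO libraries. With the inhibitor, Epha10 gave 36.2, 39.9, 32.1 and 36.1 CPM in the nocodazole-treated libraries and 25.2, 21.1, 25.2 and 25.7 CPM in those without nocodazole. Epha10, whose kinase domain is known to be inactive, overlapped between nocodazole and DMSO, and its inhibitor plus nocodazole libraries lay above all inhibitor and DMSO libraries. The Epha10 log2 change was 0.038 ± 0.126 (edgeR adjusted p = 0.837) in nocodazole against DMSO and 0.57 ± 0.126 (edgeR adjusted p = 0.127) in inhibitor plus nocodazole against inhibitor, which passed without nocodazole replicate 4 (0.56, edgeR adjusted p = 0.0215). In inhibitor plus nocodazole against nocodazole Epha10 was higher, with a log2 change of 0.35 ± 0.125 (edgeR adjusted p = 0.0409), and its interaction was 0.53 ± 0.178 (edgeR adjusted p = 0.0468). The first of these 2 calls was lost when any 1 of 7 libraries was left out (edgeR adjusted p from 0.0519 to 0.131; nocodazole replicates 3 and 4, inhibitor plus nocodazole replicates 1, 2 and 4, inhibitor replicate 1 and DMSO replicate 1), and its log2 change was 0.21 without nocodazole replicate 4. The Epha10 interaction was lost without any 1 of 10 libraries (edgeR adjusted p from 0.0503 to 0.0985; nocodazole replicate 3, inhibitor plus nocodazole replicates 2 and 4, inhibitor replicates 1, 2 and 3 and DMSO replicates 1, 2, 3 and 4). Epha5 fell by 0.47 on the log2 scale in nocodazole against DMSO (± 0.162, edgeR adjusted p = 0.0297), a call lost without nocodazole replicate 1 (edgeR adjusted p = 0.0728) or 2 (0.0929) or DMSO replicate 2 (0.0874). In inhibitor plus nocodazole against nocodazole Epha5 gave a log2 change of 0.42 ± 0.162 (edgeR adjusted p = 0.0542), which passed without replicate 1 of inhibitor plus nocodazole (0.57, edgeR adjusted p = 0.00401), nocodazole replicate 3 (0.52, edgeR adjusted p = 0.0322) or inhibitor replicate 2 (0.43, edgeR adjusted p = 0.0445). The Epha5 interaction of 0.46 ± 0.229 (edgeR adjusted p = 0.174) passed without that replicate 1 (0.60, edgeR adjusted p = 0.0276). Epha7 was higher in inhibitor plus nocodazole than in nocodazole, with a log2 change of 0.56 ± 0.151 (edgeR adjusted p = 0.0086), and gave a log2 change of -0.15 ± 0.152 (edgeR adjusted p = 0.451) in nocodazole against DMSO. Under the inhibitor alone Epha7 gave a log2 change of 0.42 ± 0.15 (edgeR adjusted p = 0.0749), which passed without nocodazole replicate 2 (0.42, edgeR adjusted p = 0.045).

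**Figure D3:**
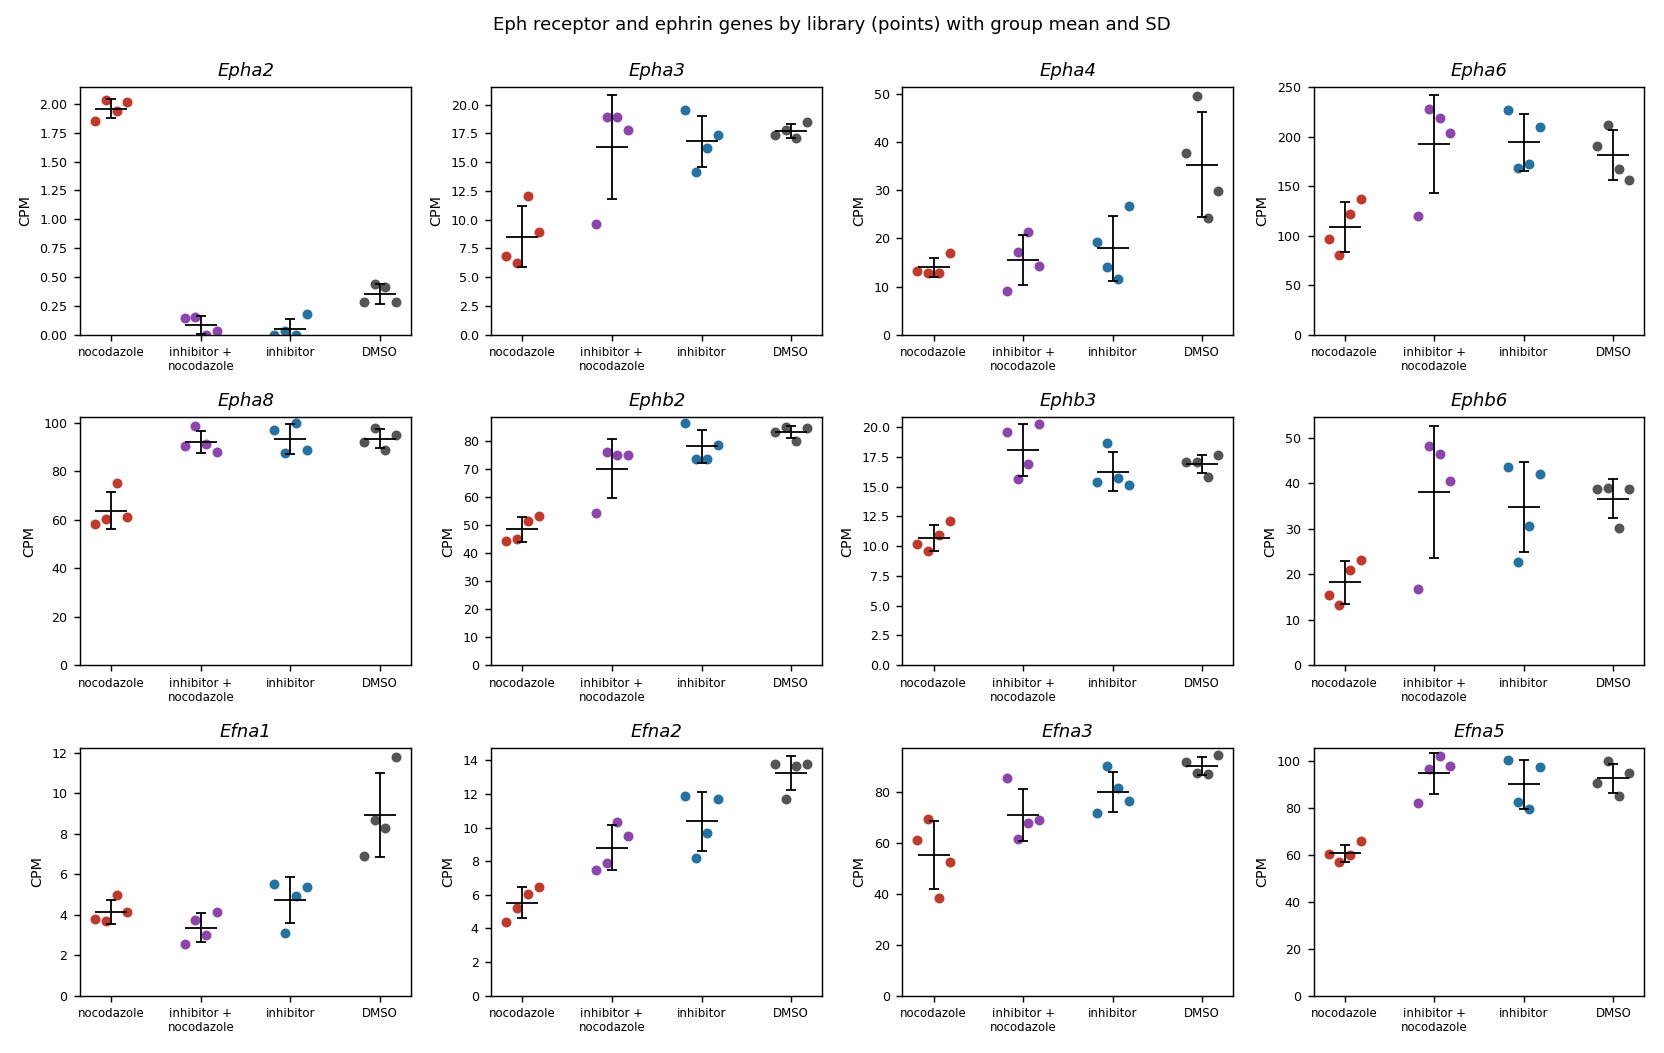
CPM of 12 of the named Eph receptor and ephrin genes in each library, grouped as nocodazole, inhibitor plus nocodazole, inhibitor and DMSO, with the mean and SD of each group (n = 4). Ephb2 lies between 44.3 and 53.3 CPM in the nocodazole libraries and between 80.1 and 84.9 CPM in the DMSO libraries, while Epha2 is highest in nocodazole.

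Of the Eph B receptors, which bind the transmembrane ephrins, the 3 abundant members fell with nocodazole. Ephb2 (ENSMUSG00000028664.15) stood at 44.3, 45.0, 51.4 and 53.3 CPM after nocodazole, against 83.3, 84.9, 80.1 and 84.7 CPM in DMSO. Under the inhibitor, Ephb2 stood at 54.3, 76.1, 74.8 and 74.8 CPM with nocodazole, against 86.3, 73.6, 73.6 and 78.6 CPM without it. Replicate 1 of inhibitor plus nocodazole was the lowest of its group and still above the nocodazole libraries. Ephb2, a receptor for midline crossing and synapse formation, showed a log2 fold change of -0.78 ± 0.0952 (edgeR adjusted p = 1.03e-05) in nocodazole against DMSO, and of 0.53 ± 0.0951 (edgeR adjusted p = 0.0004) in inhibitor plus nocodazole against nocodazole. Its interaction was 0.62 ± 0.134 (edgeR adjusted p = 0.0045). After nocodazole Ephb3 (ENSMUSG00000005958.16) measured 10.2, 9.57, 10.9 and 12.1 CPM, against 17.0, 17.0, 15.8 and 17.6 CPM in DMSO. For Ephb3, the inhibitor libraries gave 19.6, 15.6, 16.8 and 20.3 CPM with nocodazole and 15.4, 18.7, 15.7 and 15.1 CPM without it. The nocodazole libraries of Ephb3 lay below all 12 others. Ephb3 showed a log2 fold change of -0.66 ± 0.0982 (edgeR adjusted p = 7.15e-05) in nocodazole against DMSO, of 0.76 ± 0.0981 (edgeR adjusted p = 1.78e-05) in inhibitor plus nocodazole against nocodazole, with an interaction of 0.82 ± 0.138 (edgeR adjusted p = 0.000857).

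Ephb6 (ENSMUSG00000029869.8) gave 15.5, 13.2, 20.9 and 23.2 CPM in the nocodazole libraries, against 38.8, 38.9, 30.2 and 38.7 CPM in the DMSO libraries. With the inhibitor, Ephb6 gave 16.8, 48.3, 46.5 and 40.5 CPM in the nocodazole-treated libraries and 43.6, 22.6, 30.7 and 41.9 CPM in those without nocodazole. Ephb6, a receptor without kinase activity, was below DMSO in every nocodazole library, but replicate 1 of inhibitor plus nocodazole and replicate 2 of the inhibitor group lay in the nocodazole range. Ephb6 showed a log2 fold change of -1.01 ± 0.276 (edgeR adjusted p = 0.00864) in nocodazole against DMSO, and of 1.06 ± 0.276 (edgeR adjusted p = 0.00678) in inhibitor plus nocodazole against nocodazole. The Ephb6 interaction, 1.14 ± 0.385 (edgeR adjusted p = 0.0494), was lost without any 1 of 11 libraries (edgeR adjusted p from 0.0549 to 0.0994; nocodazole replicates 1, 2 and 3, inhibitor plus nocodazole replicates 2, 3 and 4, inhibitor replicates 2 and 3 and DMSO replicates 1, 2 and 4). Ephb4, a receptor of venous endothelium, stayed near 1 CPM in all groups and gave a log2 change of 0.23 ± 0.281 (edgeR adjusted p = 0.545) in nocodazole against DMSO.

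All 5 ephrin A genes, which encode cues anchored in the membrane by a lipid, fell with nocodazole. Efna5 (ENSMUSG00000048915.13) stood at 60.2, 57.0, 59.8 and 65.6 CPM after nocodazole, against 90.3, 99.8, 85.0 and 94.6 CPM in DMSO. Under the inhibitor, Efna5 stood at 82.0, 96.6, 102 and 97.7 CPM with nocodazole, against 100.4, 82.5, 79.6 and 97.3 CPM without it. The nocodazole libraries of this tectal and limb repellent lay below all others, and the other 3 groups overlapped. Efna5 showed a log2 fold change of -0.61 ± 0.0843 (edgeR adjusted p = 3.61e-05) in nocodazole against DMSO, of 0.64 ± 0.0844 (edgeR adjusted p = 2.09e-05) in inhibitor plus nocodazole against nocodazole, with an interaction of 0.68 ± 0.119 (edgeR adjusted p = 0.00111). After nocodazole Efna3 (ENSMUSG00000028039.12) measured 61.0, 69.5, 38.2 and 52.3 CPM, against 91.6, 87.5, 87.1 and 94.6 CPM in DMSO. For Efna3, the inhibitor libraries gave 85.5, 61.7, 68.0 and 69.0 CPM with nocodazole and 71.7, 90.3, 81.4 and 76.6 CPM without it. Every nocodazole library of Efna3 was below DMSO, yet nocodazole and inhibitor plus nocodazole overlapped. Efna3 showed a log2 fold change of -0.71 ± 0.139 (edgeR adjusted p = 0.000777) in nocodazole against DMSO, and of 0.36 ± 0.138 (edgeR adjusted p = 0.0528) in inhibitor plus nocodazole against nocodazole, which missed the threshold as did its interaction of 0.54 ± 0.195 (edgeR adjusted p = 0.0657). Without nocodazole replicate 2 both passed (0.49, edgeR adjusted p = 0.01 and 0.67, edgeR adjusted p = 0.0189), and without replicate 2 of inhibitor plus nocodazole the first did (0.42, edgeR adjusted p = 0.0462). Of the Efna3 exons 14.1% lie opposite the gene Gm15998, which was under 2 CPM in every group mean.

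Efna2 (ENSMUSG00000003070.7) gave 4.36, 5.24, 6.04 and 6.47 CPM in the nocodazole libraries, against 13.8, 11.7, 13.7 and 13.8 CPM in the DMSO libraries. With the inhibitor, Efna2 gave 7.45, 7.89, 10.3 and 9.52 CPM in the nocodazole-treated libraries and 11.9, 8.20, 9.68 and 11.7 CPM in those without nocodazole. Efna2, a cue of the visual map, was lowest in the 4 nocodazole libraries, and inhibitor plus nocodazole lay above nocodazole and below DMSO in every library. Efna2 showed a log2 fold change of -1.26 ± 0.146 (edgeR adjusted p = 5.93e-06) in nocodazole against DMSO and of 0.67 ± 0.146 (edgeR adjusted p = 0.00195) in inhibitor plus nocodazole against nocodazole, with an interaction of 1.02 ± 0.203 (edgeR adjusted p = 0.00277). Efna4 (ENSMUSG00000028040.8) stood at 0.276, 0.299, 0.272 and 0.423 CPM after nocodazole, against 0.840, 1.03, 0.990 and 0.900 CPM in DMSO. Under the inhibitor, Efna4 stood at 0.480, 0.532, 0.590 and 0.707 CPM with nocodazole, against 0.716, 0.465, 0.438 and 0.760 CPM without it. Efna4, at or under about 1 CPM and with 9 to 13 counts per nocodazole library, was lowest in nocodazole, and the inhibitor libraries lay between those of nocodazole and DMSO. Efna4 showed a log2 fold change of -1.56 ± 0.24 (edgeR adjusted p = 9.17e-05) in nocodazole against DMSO and of 0.86 ± 0.25 (edgeR adjusted p = 0.0134) in inhibitor plus nocodazole against nocodazole, with an interaction of 1.51 ± 0.334 (edgeR adjusted p = 0.00545). Under the inhibitor alone Efna4 gave a log2 change of -0.65 ± 0.221 (edgeR adjusted p = 0.0629), which passed without inhibitor replicate 4 (-0.79, edgeR adjusted p = 0.035). A share of 10.5% of its exonic bases lies opposite 4731419I09Rik, so reads cannot be assigned there without strand.

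After nocodazole Efna1 (ENSMUSG00000027954.10) measured 3.81, 3.68, 4.99 and 4.13 CPM, against 6.87, 8.70, 8.27 and 11.8 CPM in DMSO. For Efna1, the inhibitor libraries gave 2.57, 3.73, 2.98 and 4.15 CPM with nocodazole and 5.54, 3.08, 4.92 and 5.37 CPM without it. Efna1, first known as a gene induced by inflammatory signals in endothelium, was below DMSO in all 12 treated libraries, and the 3 treated groups overlapped. Efna1 showed a log2 fold change of -1.10 ± 0.202 (edgeR adjusted p = 0.000449) in nocodazole against DMSO and of -0.91 ± 0.2 (edgeR adjusted p = 0.00758) in inhibitor against DMSO. Between inhibitor plus nocodazole and nocodazole Efna1 gave a log2 change of -0.31 ± 0.207 (edgeR adjusted p = 0.28), and its interaction of 0.60 ± 0.287 (edgeR adjusted p = 0.151) did not pass. Efnb1 (ENSMUSG00000031217.9) gave 16.5, 19.98, 14.7 and 20.8 CPM in the nocodazole libraries, against 24.9, 23.5, 21.5 and 26.6 CPM in the DMSO libraries. With the inhibitor, Efnb1 gave 32.0, 23.0, 27.4 and 22.9 CPM in the nocodazole-treated libraries and 20.5, 28.7, 28.0 and 23.2 CPM in those without nocodazole. Efnb1, a transmembrane ephrin that can signal back into its own cell, was below DMSO in every nocodazole library, and inhibitor replicate 1 lay in the nocodazole range. Efnb1 showed a log2 fold change of -0.42 ± 0.136 (edgeR adjusted p = 0.0219) in nocodazole against DMSO, and of 0.55 ± 0.135 (edgeR adjusted p = 0.00472) in inhibitor plus nocodazole against nocodazole. The first Efnb1 call was lost without nocodazole replicate 1 (edgeR adjusted p = 0.0637) or 3 (0.0529) or DMSO replicate 4 (0.0659). The Efnb1 interaction of 0.49 ± 0.191 (edgeR adjusted p = 0.0825) passed without nocodazole replicate 4 (0.58, edgeR adjusted p = 0.047). Efnb2 gave a log2 change of 0.38 ± 0.154 (edgeR adjusted p = 0.0644) in nocodazole against DMSO and passed without nocodazole replicate 2 (0.55, edgeR adjusted p = 0.000752), and Efnb3 gave a log2 change of 0.059 ± 0.337 (edgeR adjusted p = 0.908).

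In the Slit and Robo system Slit1, Slit2 and the receptor Robo2 rose with nocodazole, while the receptor Robo1 fell. Slit1 (ENSMUSG00000025020.12) stood at 99.0, 109, 83.5 and 97.4 CPM after nocodazole, against 69.0, 72.9, 72.6 and 67.6 CPM in DMSO. Under the inhibitor, Slit1 stood at 105, 79.0, 77.9 and 76.1 CPM with nocodazole, against 71.7, 95.4, 83.9 and 72.5 CPM without it. The nocodazole libraries lay above DMSO and overlapped with both inhibitor groups, and replicate 1 of inhibitor plus nocodazole was the highest of its group. Slit1 showed a log2 fold change of 0.46 ± 0.11 (edgeR adjusted p = 0.00325) in nocodazole against DMSO, and of -0.20 ± 0.109 (edgeR adjusted p = 0.172) in inhibitor plus nocodazole against nocodazole. Its interaction of -0.40 ± 0.155 (edgeR adjusted p = 0.0828) missed the threshold and passed without that replicate 1 (-0.52, edgeR adjusted p = 0.00738) or nocodazole replicate 3 (-0.45, edgeR adjusted p = 0.0474), and without that replicate 1 Slit1 was also called in inhibitor plus nocodazole against nocodazole (-0.32, edgeR adjusted p = 0.0131). After nocodazole Slit2 (ENSMUSG00000031558.16) measured 31.6, 23.1, 50.3 and 42.3 CPM, against 18.1, 21.3, 19.6 and 17.1 CPM in DMSO. For Slit2, the inhibitor libraries gave 16.9, 29.5, 26.8 and 26.7 CPM with nocodazole and 31.6, 21.8, 25.0 and 27.8 CPM without it. Slit2 was higher in nocodazole replicates 3 and 4 than in replicates 1 and 2, and all nocodazole and all inhibitor libraries lay above DMSO, while replicate 1 of inhibitor plus nocodazole lay below it. Slit2 showed a log2 fold change of 0.95 ± 0.204 (edgeR adjusted p = 0.00158) in nocodazole against DMSO, with an interaction of -1.04 ± 0.287 (edgeR adjusted p = 0.0189). In inhibitor plus nocodazole against nocodazole Slit2 was lower, with a log2 change of -0.56 ± 0.202 (edgeR adjusted p = 0.0402), a call lost without any 1 of 6 libraries (edgeR adjusted p from 0.0504 to 0.159; nocodazole replicates 3 and 4, inhibitor plus nocodazole replicates 1, 3 and 4 and DMSO replicate 3). Slit3 stayed under 1 CPM in the group means and gave a log2 change of 0.38 ± 0.342 (edgeR adjusted p = 0.409) in nocodazole against DMSO.

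Robo1 (ENSMUSG00000022883.12) gave 25.9, 23.0, 28.0 and 35.0 CPM in the nocodazole libraries, against 64.1, 60.2, 54.3 and 58.9 CPM in the DMSO libraries. With the inhibitor, Robo1 gave 33.9, 46.4, 52.7 and 46.3 CPM in the nocodazole-treated libraries and 54.9, 39.0, 38.4 and 50.4 CPM in those without nocodazole. Robo1 was below DMSO in every nocodazole and inhibitor plus nocodazole library, and replicate 1 of inhibitor plus nocodazole reached into the nocodazole range. Robo1 showed a log2 fold change of -1.08 ± 0.146 (edgeR adjusted p = 2.72e-05) in nocodazole against DMSO and of 0.68 ± 0.146 (edgeR adjusted p = 0.00177) in inhibitor plus nocodazole against nocodazole, with an interaction of 1.06 ± 0.205 (edgeR adjusted p = 0.00236). Robo2 (ENSMUSG00000052516.20) stood at 161, 172, 110.5 and 110.03 CPM after nocodazole, against 99.2, 93.8, 106 and 96.1 CPM in DMSO. Under the inhibitor, Robo2 stood at 174, 109, 115 and 115 CPM with nocodazole, against 114, 141, 133 and 98.4 CPM without it. Robo2 was above DMSO in every nocodazole library, with replicates 1 and 2 well above 3 and 4, and the highest library was replicate 1 of inhibitor plus nocodazole. The 3 libraries highest in Robo2 also had mitochondrial shares of 1.36%, 1.501% and 1.712%, while inhibitor replicate 3, with the highest share of 1.78%, had 133 CPM; the part of this in the result was not tested. Robo2 showed a log2 fold change of 0.49 ± 0.165 (edgeR adjusted p = 0.0285) in nocodazole against DMSO. That Robo2 call was lost without nocodazole replicate 1 (edgeR adjusted p = 0.0923) or 2 (0.105) or DMSO replicate 1 (0.0581), 2 (0.0696) or 4 (0.066). Robo2 in inhibitor plus nocodazole against nocodazole gave a log2 change of -0.11 ± 0.164 (edgeR adjusted p = 0.665), and the interaction was -0.41 ± 0.233 (edgeR adjusted p = 0.231), which passed without replicate 1 of inhibitor plus nocodazole (-0.59, edgeR adjusted p = 0.0377). Robo3, a commissural axon receptor, and Robo4, an endothelial one, were among the members too low to test.

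**Figure D4:**
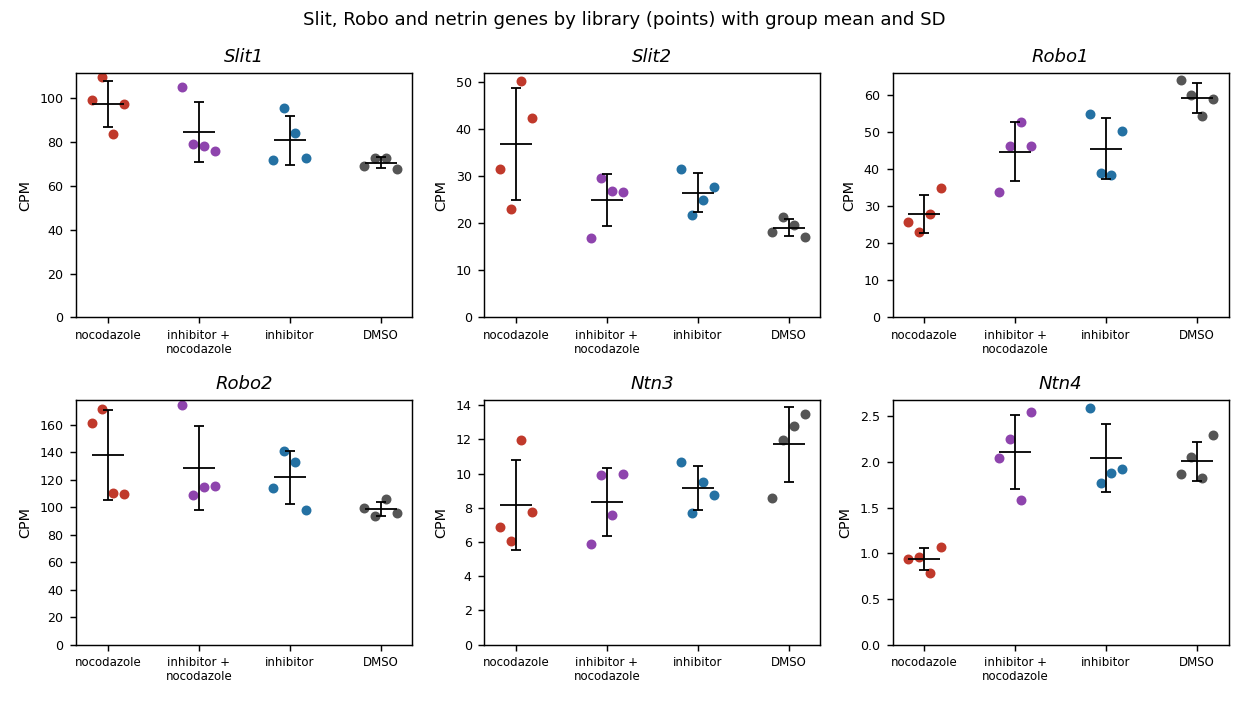
CPM of Slit1, Slit2, Robo1, Robo2, Ntn3 and Ntn4 in each library of the nocodazole, inhibitor plus nocodazole, inhibitor and DMSO groups, with the mean and SD of each group (n = 4). Slit2 ranges from 23.1 to 50.3 CPM in nocodazole and from 17.1 to 21.3 CPM in DMSO, and Robo1 from 23.0 to 35.0 CPM in nocodazole and from 54.3 to 64.1 CPM in DMSO.

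In nocodazole against DMSO, among the netrins only Ntn4, a laminin-like netrin of basement membranes, passed the test. After nocodazole Ntn4 (ENSMUSG00000020019.5) measured 0.938, 0.957, 0.786 and 1.07 CPM, against 1.87, 2.05, 1.82 and 2.30 CPM in DMSO. For Ntn4, the inhibitor libraries gave 2.04, 2.26, 1.58 and 2.54 CPM with nocodazole and 2.59, 1.77, 1.88 and 1.92 CPM without it. The nocodazole libraries lay below all 12 others, which overlapped. Ntn4 showed a log2 fold change of -1.09 ± 0.183 (edgeR adjusted p = 0.000197) in nocodazole against DMSO and of 1.16 ± 0.182 (edgeR adjusted p = 0.000115) in inhibitor plus nocodazole against nocodazole, with an interaction of 1.14 ± 0.25 (edgeR adjusted p = 0.00523). Ntn3 (ENSMUSG00000117406.2) gave 6.90, 6.04, 11.9 and 7.77 CPM in the nocodazole libraries, against 8.59, 12.0, 12.8 and 13.5 CPM in the DMSO libraries. With the inhibitor, Ntn3 gave 5.86, 9.90, 7.60 and 10.004 CPM in the nocodazole-treated libraries and 10.7, 7.67, 9.49 and 8.76 CPM in those without nocodazole. All 4 groups of Ntn3 overlapped, and nocodazole replicate 3 was higher than replicates 1, 2 and 4. Ntn3 gave a log2 change of -0.52 ± 0.209 (edgeR adjusted p = 0.0594) in nocodazole against DMSO, which missed the threshold and passed without nocodazole replicate 3 (-0.78, edgeR adjusted p = 0.00505) or DMSO replicate 1 (-0.65, edgeR adjusted p = 0.025) or replicate 1 of inhibitor plus nocodazole (-0.53, edgeR adjusted p = 0.0361). On the same strand, 89 exonic bases of Ntn3 (1.74%) are shared with Tbc1d24, which stood at 94.0 ± 6.73 CPM in nocodazole and 92.4 ± 2.79 CPM in DMSO (SD, n = 4 each), and reads there cannot be told apart. Ntn1 averaged 0.492 ± 0.108 CPM in nocodazole and 0.274 ± 0.220 CPM in DMSO (SD, n = 4 each), and gave a log2 change of 0.83 ± 0.435 (edgeR adjusted p = 0.147); without DMSO replicate 1 it passed (1.37, edgeR adjusted p = 0.0224).

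The Unc5 receptors did not move together: Unc5b and Unc5d rose with nocodazole and Unc5c fell. Unc5c (ENSMUSG00000059921.16) stood at 41.4, 43.4, 35.8 and 39.3 CPM after nocodazole, against 78.3, 77.4, 73.0 and 68.5 CPM in DMSO. Under the inhibitor, Unc5c stood at 84.9, 80.0, 77.3 and 81.3 CPM with nocodazole, against 82.2, 89.7, 76.0 and 74.0 CPM without it. Every nocodazole library of Unc5c was below every other library. Unc5c showed a log2 fold change of -0.89 ± 0.0713 (edgeR adjusted p = 1.42e-07) in nocodazole against DMSO, of 1.02 ± 0.0714 (edgeR adjusted p = 3.53e-08) in inhibitor plus nocodazole against nocodazole, with an interaction of 0.90 ± 0.0998 (edgeR adjusted p = 2.77e-05). After nocodazole Unc5d (ENSMUSG00000063626.7) measured 14.7, 9.45, 26.7 and 32.7 CPM, against 6.13, 8.11, 8.91 and 8.53 CPM in DMSO. For Unc5d, the inhibitor libraries gave 1.99, 5.64, 6.11 and 4.32 CPM with nocodazole and 5.70, 3.14, 3.73 and 6.00 CPM without it. Unc5d was above DMSO in every nocodazole library and highest in replicates 3 and 4, and all 8 libraries with the inhibitor lay below DMSO. Unc5d showed a log2 fold change of 1.39 ± 0.352 (edgeR adjusted p = 0.00512) in nocodazole against DMSO and of -2.22 ± 0.366 (edgeR adjusted p = 0.000189) in inhibitor plus nocodazole against nocodazole. Its difference under the inhibitor alone, -0.77 ± 0.362 (edgeR adjusted p = 0.169), and its interaction, -1.45 ± 0.509 (edgeR adjusted p = 0.0572), did not pass; without nocodazole replicate 2 the interaction of Unc5d did (-1.69, edgeR adjusted p = 0.0172).

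Unc5b (ENSMUSG00000020099.9) gave 41.02, 58.4, 24.9 and 26.5 CPM in the nocodazole libraries, against 7.59, 7.12, 10.96 and 8.69 CPM in the DMSO libraries. With the inhibitor, Unc5b gave 54.8, 15.3, 13.2 and 15.8 CPM in the nocodazole-treated libraries and 10.8, 20.3, 32.1 and 11.8 CPM in those without nocodazole. Unc5b was above DMSO in every nocodazole library, highest in replicates 1 and 2, and replicate 1 of inhibitor plus nocodazole lay with them and far above replicates 2 to 4. Those 3 libraries are also the 3 highest in Robo2, and inhibitor replicate 3 lay within the nocodazole range. Unc5b showed a log2 fold change of 2.13 ± 0.457 (edgeR adjusted p = 0.00159) in nocodazole against DMSO, and of -0.60 ± 0.43 (edgeR adjusted p = 0.315) in inhibitor plus nocodazole against nocodazole. Without replicate 1 of inhibitor plus nocodazole this second change was -1.35 (edgeR adjusted p = 0.00509), and the Unc5b interaction was -2.47 (edgeR adjusted p = 0.00126), against -1.72 ± 0.624 (edgeR adjusted p = 0.0655) with it. The Unc5b interaction also passed without inhibitor replicate 1 (-1.89, edgeR adjusted p = 0.0472). Dcc, the attractive netrin receptor, averaged 1.21 ± 0.307 CPM in nocodazole, 0.604 ± 0.182 CPM in inhibitor plus nocodazole, 0.580 ± 0.273 CPM in inhibitor and 1.03 ± 0.117 CPM in DMSO (SD, n = 4 each). Dcc was lower in inhibitor plus nocodazole than in nocodazole, with a log2 change of -0.99 ± 0.297 (edgeR adjusted p = 0.0159), a call lost without nocodazole replicate 3 (edgeR adjusted p = 0.0501) or inhibitor plus nocodazole replicate 3 (0.0514), and gave a log2 change of 0.22 ± 0.284 (edgeR adjusted p = 0.575) in nocodazole against DMSO. Under the inhibitor alone Dcc gave a log2 change of -0.81 ± 0.299 (edgeR adjusted p = 0.0835), which passed without inhibitor replicate 4 (-1.18, edgeR adjusted p = 0.0135).

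The 3 Flrt genes all changed, and in different directions. Flrt2 (ENSMUSG00000047414.7) stood at 3.34, 2.87, 3.75 and 3.51 CPM after nocodazole, against 17.7, 18.9, 18.3 and 17.5 CPM in DMSO. Under the inhibitor, Flrt2 stood at 21.1, 28.7, 23.2 and 27.6 CPM with nocodazole, against 27.4, 23.1, 27.6 and 27.9 CPM without it. Flrt2, a repellent ligand of Unc5d, was lowest in all 4 nocodazole libraries, and the libraries with the inhibitor lay above DMSO. Flrt2 showed a log2 fold change of -2.43 ± 0.11 (edgeR adjusted p = 1.13e-09) in nocodazole against DMSO and of 0.55 ± 0.0976 (edgeR adjusted p = 0.00205) in inhibitor against DMSO. In inhibitor plus nocodazole against nocodazole Flrt2 was higher, with a log2 change of 2.90 ± 0.111 (edgeR adjusted p = 4.73e-11), a 7.46-fold difference, and against the inhibitor alone the log2 change was -0.078 ± 0.0968 (edgeR adjusted p = 0.995). The interaction of Flrt2 was 2.35 ± 0.146 (edgeR adjusted p = 1.81e-07), the lowest adjusted p of the members. Flrt2's receptor Unc5d rose in the first of these comparisons and was lower in inhibitor plus nocodazole against nocodazole.

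After nocodazole Flrt3 (ENSMUSG00000051379.13) measured 67.5, 44.5, 97.0 and 76.1 CPM, against 31.4, 36.9, 45.5 and 43.6 CPM in DMSO. For Flrt3, the inhibitor libraries gave 8.19, 20.2, 19.6 and 18.5 CPM with nocodazole and 22.2, 13.2, 14.7 and 25.9 CPM without it. Flrt3, a ligand of Unc5b that also binds fibroblast growth factor receptors, was above DMSO in nocodazole replicates 1, 3 and 4, while replicate 2 fell between DMSO replicates 3 and 4. All 8 libraries with the inhibitor lay below all DMSO libraries, and replicate 1 of inhibitor plus nocodazole was the lowest. Flrt3 showed a log2 fold change of 0.86 ± 0.269 (edgeR adjusted p = 0.0193) in nocodazole against DMSO, a call lost without nocodazole replicate 3 (edgeR adjusted p = 0.0791) or DMSO replicate 1 (0.0591). Flrt3 under the inhibitor alone showed a log2 fold change of -1.05 ± 0.276 (edgeR adjusted p = 0.0206), a call lost without inhibitor replicate 2 (edgeR adjusted p = 0.0741) or 3 (0.0715) or DMSO replicate 3 (0.0536) or 4 (0.0624). In inhibitor plus nocodazole against nocodazole Flrt3 was lower, with a log2 change of -2.11 ± 0.282 (edgeR adjusted p = 2.47e-05), a 4.3-fold difference, and its interaction of -1.06 ± 0.388 (edgeR adjusted p = 0.0676) missed the threshold; without nocodazole replicate 2 it passed (-1.23, edgeR adjusted p = 0.0313). Flrt1 (ENSMUSG00000047787.9) gave 103, 109, 99.95 and 111 CPM in the nocodazole libraries, against 209.6, 199.7, 175 and 192 CPM in the DMSO libraries. With the inhibitor, Flrt1 gave 126, 144, 153 and 124 CPM in the nocodazole-treated libraries and 163, 159.9, 141 and 161 CPM in those without nocodazole. Flrt1, the abundant Flrt of these neurons, was lowest in nocodazole, and all inhibitor libraries lay below DMSO. Flrt1 showed a log2 fold change of -0.88 ± 0.0748 (edgeR adjusted p = 2.8e-07) in nocodazole against DMSO, of -0.31 ± 0.0741 (edgeR adjusted p = 0.0116) in inhibitor against DMSO and of 0.37 ± 0.0745 (edgeR adjusted p = 0.00104) in inhibitor plus nocodazole against nocodazole, with an interaction of 0.68 ± 0.105 (edgeR adjusted p = 0.000412).

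**Figure D5:**
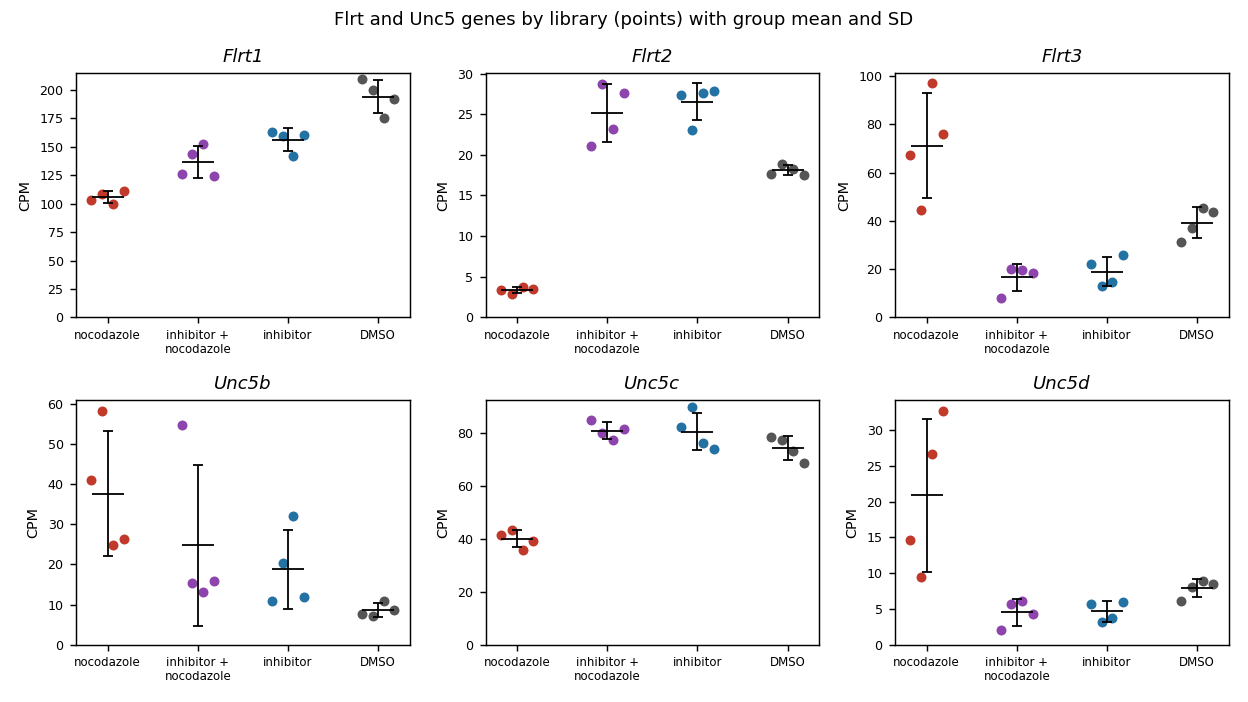
CPM of the named Flrt and Unc5 genes in each library of the nocodazole, inhibitor plus nocodazole, inhibitor and DMSO groups, with the mean and SD of each group (n = 4). Flrt2 lies between 2.87 and 3.75 CPM in nocodazole and between 17.5 and 18.9 CPM in DMSO; in Unc5b, replicate 1 of inhibitor plus nocodazole stands at 54.8 CPM above the other 3 of its group.

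The signalling partners of these families changed in both directions with nocodazole. The median log2 change of the tested genes was 0.02 for Eph and ephrin signalling, -0.18 for Slit and Robo signalling, 0.00 for netrin signalling and -0.18 for the Flrt partners, beside 0.007 over all genes. In nocodazole against DMSO 56.2% of the tested genes of the first list were called, 50.0% of the second, 58.8% of the third and 9 of the 10 Flrt partners, where 37.5% of all genes were, 18.6% higher and 19.0% lower. In the interaction the shares of these lists were 34.4%, 28.6%, 29.4% and 40.0%, where 18.7% of all genes were called, and no test was made of the lists. Of 32 genes of Eph and ephrin signalling tested, 9 rose and 9 fell in nocodazole against DMSO; the 3 with the lowest adjusted p were Adam10, a protease that cuts ephrins, at a log2 change of -0.52 ± 0.0617 (edgeR adjusted p = 8.14e-06), Anks1b, an Eph receptor adaptor, at 0.57 ± 0.072 (edgeR adjusted p = 1.38e-05), and Fyn, a Src-family kinase, at 0.35 ± 0.0503 (edgeR adjusted p = 4.66e-05). In the interaction 5 of these 32 genes were higher (Vav2, Nck1, Anks1, Adam10 and Pick1) and 6 lower (Itsn1, Sipa1l1, Anks1b, Fyn, Sdcbp and Rock1). Of 14 Slit and Robo signalling genes tested, 2 rose and 5 fell; Dag1, the dystroglycan that binds Slit, stood at a log2 change of -0.60 ± 0.0571 (edgeR adjusted p = 8.71e-07), Srgap3, a Robo-linked GTPase activator, at -0.75 ± 0.076 (edgeR adjusted p = 1.54e-06), and Myo9b at 0.68 ± 0.0837 (edgeR adjusted p = 1.06e-05). In the interaction Srgap3, Dag1 and Usp33 were higher and Myo9b lower. Of 17 netrin signalling genes tested, 6 rose and 4 fell; Rgmb, a ligand of the Dcc relative neogenin, stood at a log2 change of -0.62 ± 0.0908 (edgeR adjusted p = 6.19e-05), Trio, a Rac exchange factor, at 0.32 ± 0.0526 (edgeR adjusted p = 0.000148), and Dscam, a further netrin receptor, at -0.41 ± 0.0668 (edgeR adjusted p = 0.000151). In the interaction Dscam and Rgmb were higher, and Ptk2, Trio and Dapk1 lower.

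Of 10 Flrt partner genes tested, 4 rose and 5 fell with nocodazole. The 3 with the lowest adjusted p were Adgrl1, a latrophilin, at a log2 change of -0.48 ± 0.0559 (edgeR adjusted p = 5.95e-06), Rnd1, a small GTPase, at 2.27 ± 0.278 (edgeR adjusted p = 1.02e-05), and Fgfr2, a fibroblast growth factor receptor, at 2.33 ± 0.303 (edgeR adjusted p = 1.81e-05). Rnd1 averaged 6.29 ± 0.7997 CPM in nocodazole, 2.03 ± 0.560 CPM in inhibitor plus nocodazole, 1.64 ± 0.576 CPM in inhibitor and 1.29 ± 0.5004 CPM in DMSO (SD, n = 4 each). In the interaction Adgrl1 was higher, and Tenm4, Fgfr2 and Rnd1 were lower. All 3 latrophilins fell with nocodazole, Adgrl2 by 0.40 ± 0.0688 (edgeR adjusted p = 0.000276) and Adgrl3 by 0.65 ± 0.14 (edgeR adjusted p = 0.00155) on the log2 scale.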

How the data were processed

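RNA was counted in 16 libraries of cultured embryonic dorsal root ganglion neurons, 4 in each of 4 groups taken from the labels. The authors deposited their counts per Ensembl gene as whole numbers in a single table. The submitters' processing notes name STAR, Salmon and the GRCm39 build; which tool made the counts, tool versions and strand settings are not given in the sources used here. Reads shared between close paralogs, such as Eph receptor genes, may have been split in ways not stated. The table had 16 columns, each matching 1 sample's labels. Totals ran from 30987962 to 43321421 counts per library. The 24 pairs of replicates within groups differed by more than counting noise, with a chi-square per degree of freedom of 8.28 to 51.3 over genes with at least 20 counts where counting alone gives about 1. Every library was used as its own replicate, though this spread cannot show whether the libraries came from separate cultures.

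Counts were fitted with edgeR 4.0.16 (limma 3.58.1, R 4.3.3): trimmed mean of M-values scaling (factors 0.9595 to 1.064), the default filterByExpr rule, which left 19156 genes, and a quasi-likelihood model with 1 mean per group over all 16 libraries. P-values were adjusted by Benjamini and Hochberg's method within each contrast, across the whole table of tested genes, and genes were called below 0.05; and the SE is the log2 fold change over the root of F. The code of the fit was run on simulated counts with known changes in the nocodazole group alone and independent noise. That run does not bear on the spread between libraries seen here, and its outcome is not given. CPM used the scaled library sizes. TPM used the union of all annotated exons of each gene in GENCODE M21 as its length. Alternatives were DESeq2 1.42.0, its size factors (RLE), no filter, a filter of at least 1 CPM in at least 4 libraries, the replicate number as a block, a fit of the compared groups alone, and leaving out each library in turn.

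Per-library values are printed for members called with a log2 change of at least 1 in a pairwise contrast, for those called in the interaction, and for the member highest per length in each family (28 in all). Of each list of partner genes, the 3 with the lowest adjusted p in nocodazole against DMSO are named with values, and those called in the interaction are named. The members, partner lists, markers and motifs were chosen with earlier results of these data known, and the latrophilins Adgrl2 and Adgrl3, the GC box and the TATA box after values were seen. Promoters came from a RefSeq table on GRCm38.p6. A listed gene is not reported here and was left out of its list. The labels give no batch or date, and what the order of the submitters' sample numbers stands for is not given.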

Additional observations from a re-analysis of the deposited data

Results flagged for a closer look

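Within groups of 4 libraries, the level of a named member was set apart where 1 library's gap to its nearest neighbour exceeded Dixon's 95% critical value for the share of the group's range. Chance alone sets apart about 1 group in 20 where values are normal and groups independent. The groups here share the same 16 libraries, so their number cannot be held against that rate. Set apart were 15 of 112 groups. Of these, 6 were in replicate 1 of inhibitor plus nocodazole, the library that also stood apart on the first principal component: Epha3 at 9.61 CPM, Ephb2 at 54.3 CPM, Flrt3 at 8.19 CPM, Robo2 at 174 CPM, Slit1 at 105 CPM and Unc5b at 54.8 CPM. Replicate 2 of the inhibitor group was set apart in Epha10 (21.1 CPM), Ephb3 (18.7 CPM) and Flrt2 (23.1 CPM). The other single libraries were DMSO replicate 2 for Efna2 at 11.7 CPM, DMSO replicate 3 for Ephb6 at 30.2 CPM, inhibitor replicate 3 for Flrt1 at 141 CPM, inhibitor replicate 4 for Epha2 at 0.177 CPM, nocodazole replicate 3 for Epha8 at 75.0 CPM and nocodazole replicate 4 for Epha4 at 17.0 CPM. The Epha2 value of inhibitor replicate 4 rests on 7 counts.

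For 16 members the change with nocodazole differed between cultures with and without the inhibitor, by the test of the interaction itself (the log2 change with inhibitor minus that without, edgeR, adjusted over all 19156 genes). It was above 0 for 14 of them. In order of size the log2 values were 2.35 for Flrt2, 1.51 for Efna4, 1.14 for Ntn4, 1.14 for Ephb6, 1.06 for Robo1, 1.02 for Efna2, 1.01 for Epha3, 0.90 for Unc5c, 0.82 for Ephb3, 0.68 for Flrt1, 0.68 for Efna5, 0.62 for Ephb2, 0.54 for Epha8 and 0.53 for Epha10. It was below 0 for Epha1 at -2.39 and Slit2 at -1.04. Of the 14 members above 0, all but Epha10 had fallen with nocodazole alone, and both below 0 had risen. The interaction subtracts that same nocodazole change, so the signs are not independent and their match is no further result. When single libraries were left out, the interaction of Epha10 was lost in 10 of 16 fits and that of Ephb6 in 11 of 16. The interaction of Epha1 was lost without inhibitor replicate 2 (edgeR adjusted p = 0.0533) and that of Epha3 without nocodazole replicate 1 (0.0504).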

How the results depend on the processing

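Each of the 72 member results that were called kept its direction and call with RLE size factors, with DESeq2 and with no filter. The stricter filter left Epha1, Efna4, Ntn1 and Slit3 untested, and lost the calls of Epha10 (edgeR adjusted p = 0.0527) and Ephb6 (0.0525) in the interaction. It called Unc5d there (log2 change -1.48), which the main fit did not. The replicate block lost the interactions of Epha10 and Ephb6 (edgeR adjusted p = 0.0587 and 0.0656) and Slit2 in inhibitor plus nocodazole against nocodazole (0.0606). Fitting only the compared groups gives no interaction and did not test Epha2 under the inhibitor. That fit lost Epha10 (edgeR adjusted p = 0.113) and Slit2 (0.0998) in inhibitor plus nocodazole against nocodazole. Genes called in inhibitor plus nocodazole against inhibitor numbered 16, and 111 with DESeq2, 28 with no filter, 5 with the replicate block, 6 in the compared groups alone and 3 to 88 when single libraries were left out; members called higher there numbered 0, 1 with DESeq2, and 0 to 1 without single libraries. Members higher in inhibitor against DMSO numbered 1, 2 with DESeq2, 4 in the compared groups alone and 1 to 2 without single libraries, members lower 5 and 2 to 7, and all genes 2494 and 1242 to 3087. Members higher in the interaction numbered 14, 11 with the stricter filter, 12 with the replicate block, 16 with DESeq2, 17 with no filter and 12 to 17 without single libraries, where all genes numbered 3587 and 2607 to 5218. Members lower in the interaction numbered 2, 5 with no filter (Unc5b, Flrt3 and Unc5d passed), and 1 to 5 without single libraries. Members called in nocodazole against DMSO numbered 7 to 8 higher and 17 to 20 lower without single libraries (6160 to 7770 of all genes), and in inhibitor plus nocodazole against nocodazole 16 to 18 higher and 4 to 7 lower (5484 to 7218 of all genes). Members short of the threshold also passed elsewhere. DESeq2 called Efnb2 and Ntn3 in nocodazole against DMSO (adjusted p = 0.0461 and 0.0374), Epha7 in inhibitor against DMSO (0.0439), Efna3 and Epha5 in inhibitor plus nocodazole against nocodazole (0.0444 and 0.038), and the interactions of Efna3 and Epha6 (0.0446 and 0.034). With no filter edgeR called Ntn3 (0.0438), Efna3 and Epha5 (0.0462 and 0.0397) in the same comparisons, and the interactions of Epha4, Efna3 and Epha6 (0.0309, 0.0472 and 0.0383). The replicate block called Efna3 in inhibitor plus nocodazole against nocodazole (0.0498), and the fit of inhibitor and DMSO alone called Unc5b, Robo1, Epha7, Slit2 and Unc5d (0.0191 to 0.0424). Leaving out 1 library lost a call in 60 of 1152 tries of called results and turned none of their directions. In 448 tries of reported results that were not called, the direction turned in 2. Unc5b in inhibitor plus nocodazole against inhibitor was -0.34 without replicate 1 of inhibitor plus nocodazole (range -0.34 to 0.80). The Epha2 interaction was 0.28 without inhibitor replicate 4 (range -2.33 to 0.28). The cause was not tested. Replicate numbers did not pair the libraries: over 24 pairs the correlations of deviations ran from -0.399 to 0.232, 8 were over 0.1, and 5 of 16 libraries correlated best with their own number. With the block, edgeR called 7104, 2481, 5, 6414 and 3457 genes in nocodazole against DMSO, inhibitor against DMSO, inhibitor plus nocodazole against inhibitor, inhibitor plus nocodazole against nocodazole, and the interaction. Counting noise is large for the 5 members not tested and for members with few counts, such as Epha1, Epha2, Efna4, Ntn1 and Slit3.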

Other observations

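The windows before the start sites of these guidance genes were rich in G and C. Over the 250 bases before the start, the median was 64.6% for the 40 member promoters, which ranged from 44.8% to 84.0%, and 52.4% over all 32851 promoters in the RefSeq table. A GC box (GGGCGG, on either strand) was in 26 of the 40 (65.0%), from 23 genes, where 32.7% of all promoters hold one. A TATA box (TATAAA, on either strand) was in 2 of 40 (5.0%), where 12.4% of all hold one. Some genes have several start sites, so these windows are not independent, and no test was made. Matches to the GC box and the TATA box depend on the share of G and C, so these comparisons are not separate results. The GC box and TATA box were chosen after values were seen.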
